A study of Mus musculus with 6 samples.

Results

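A set of 10 genes that encode secreted chemokines was followed across 6 libraries of sorted leukemia cells. They were Xcl1, Ccl2, Ccl3, Ccl4, Ccl5, Ccl6, Ccl9, Cxcl9, Cxcl10 and Cxcl12, which are 10 of the 23284 genes in the files. These genes were chosen by their FPKM values in the same cytarabine and control libraries, with those values known, so their differences between the groups are given as a description with no test.
C1498 is a murine acute myeloid leukemia (AML) line. A single-cell clone carrying EGFP by retroviral transduction was injected intravenously into female C57BL/6 J mice, and GFP+ CD49b+ cells were sorted from the marrow of femurs, tibias and pelvis on day 21. All 6 mice carried the leukemia, 3 received cytarabine intraperitoneally and 3 were controls, which the labels call PBS in one field and untreated in another, and each mouse gave 1 library of poly(A)-selected RNA. The leukemia came from 1 cultured clone, and the cytarabine dose given to these mice in particular is not stated in the sources used here.

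Chemokines are small secreted proteins that bind G protein-coupled receptors and direct the migration of leukocytes. Inflammatory chemokines are induced at sites of infection or damage, whereas homeostatic ones such as CXCL12 are made constantly by stromal cells and hold hematopoietic cells in the marrow. XCL1, also called lymphotactin, is a product of activated T cells and NK cells and attracts the dendritic cells that carry XCR1.

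The promoters of 3 genes are shown, and any link between their motifs and the FPKM values was not tested. Xcl1 and Cxcl10 had the largest positive differences among the 10 genes, and Cxcl9 lies beside Cxcl10 and shares its receptor. The letters are the 250 bases before the RefSeq transcription start in GRCm38.p6, written 5′ to 3′ along the gene. All 3 genes lie on the minus strand, and the windows are chr1:164935523-164935772 for Xcl1, chr5:92348890-92349139 for Cxcl10 and chr5:92328080-92328329 for Cxcl9. Capitals mark matches to any of 6 motifs searched on both strands.
Xcl1: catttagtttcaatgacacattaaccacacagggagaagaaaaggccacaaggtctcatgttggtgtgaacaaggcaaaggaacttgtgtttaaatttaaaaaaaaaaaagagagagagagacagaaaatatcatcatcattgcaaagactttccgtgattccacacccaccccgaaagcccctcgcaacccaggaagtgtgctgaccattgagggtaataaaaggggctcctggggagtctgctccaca
Cxcl10: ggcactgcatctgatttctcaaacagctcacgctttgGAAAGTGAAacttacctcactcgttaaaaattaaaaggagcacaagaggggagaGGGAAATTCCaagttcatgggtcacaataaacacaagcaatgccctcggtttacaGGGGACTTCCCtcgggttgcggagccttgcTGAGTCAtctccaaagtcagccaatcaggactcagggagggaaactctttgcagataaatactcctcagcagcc
Cxcl9: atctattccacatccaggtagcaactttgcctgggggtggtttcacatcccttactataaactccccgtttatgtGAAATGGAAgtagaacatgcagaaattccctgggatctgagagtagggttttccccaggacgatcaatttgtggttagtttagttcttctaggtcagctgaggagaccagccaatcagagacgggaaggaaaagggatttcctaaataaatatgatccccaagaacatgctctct
The motifs were the core of the interferon-stimulated response element (ISRE, GAAANNGAA), the STAT-bound GAS element (TTCNNNGAA), the AP-1 site (TGANTCA), the CRE (TGACGTCA), the NF-kB site and the CArG box. The Cxcl10 window held an ISRE core at 213 to 205 bases before the start, an AP-1 site at 74 to 68, and NF-kB matches at 159 to 150, 104 to 95 and 103 to 94, the last pair overlapping. The Cxcl9 window held an ISRE core at 175 to 167. No match to the 6 motifs was in the Xcl1 window, which says only that these letters are not there. Among the 32851 RefSeq promoter windows of the same length, 7.129% held the ISRE core, 7.02% the GAS element, 6.749% the AP-1 site, 1.546% the CRE, 7.251% the NF-kB site and 1.467% the CArG box. Of the 10 genes, 7 had a window in the RefSeq table. In the other 4, Ccl3 had an ISRE core at 39 to 31, Ccl9 had an AP-1 site at 53 to 47 and an NF-kB match at 35 to 26, and Ccl6 and Cxcl12 had none. Ccl2, Ccl4 and Ccl5 were not matched.

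The values are FPKM, fragments per kilobase of transcript scaled to the mapped reads of the library, so levels can be set side by side between genes. From the steps between low FPKM values, the libraries were inferred to hold between 11490000 and 18910000 reads. Transcripts of other tissues crossed the groups. Colon transcripts, from 7 marker genes, summed to 1320 to 2912 FPKM in cytarabine 2, cytarabine 3 and control 1, and to 17.2 to 207 FPKM in the other 3, so differences of the 10 genes were also taken within those 2 sets. The sets do not match the groups in colon transcript. The sum was 207 FPKM in cytarabine 1 against 17.2 and 17.3 FPKM in control 2 and 3. It was 2583 and 2912 FPKM in cytarabine 2 and 3 against 1320 FPKM in control 1. Heart transcripts, from 6 marker genes, summed to 7.21 to 659 FPKM with cytarabine and 51.1 to 2422 FPKM in controls, and the mean log2 level of each of these lists served as a covariate in 1 alternative fit. Cytarabine 1 stood apart from the other treated libraries in neutrophil transcripts, whose 9 markers summed to 1436 FPKM there, 202 FPKM in cytarabine 2, 193 FPKM in cytarabine 3 and 1443 to 2050 FPKM in controls. It also had the most of the granule gene Elane, at 81.7 FPKM against 2.81 to 9.94 FPKM in the other 5. Of the markers of the sorted cells, Ptprc (CD45) was between 284 and 386 FPKM. Itga2, which encodes the CD49b of the gate, was at 8.11, 7.79 and 7.88 FPKM in treated mice and at 10.6, 13.3 and 12.8 FPKM in controls, lower without overlap. Of the 4 markers of the sorted cells, 1 was higher and 2 were lower with an unadjusted p under 0.05 in the fit given next. Differences are means of log2(FPKM + 1), cytarabine minus control, a scale that understates the change of genes with low FPKM. The test for all other genes was limma on the same scale with Benjamini-Hochberg adjustment over the 11703 genes whose mean reached 1 FPKM. No gene passed an adjusted p of 0.05 (0%), and 2038 genes (17.4%) had an unadjusted p under 0.05, of which 890 were higher with cytarabine (7.6%) and 1148 were lower (9.81%). With 3 mice a group, the spread also covers differences between animals, and nothing in bulk RNA tells fewer cells of a type apart from less RNA per cell.

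Xcl1 had the highest mean level of the 10 genes and the largest difference on the log2(FPKM + 1) scale. It lies on chr1:164931644-164935527 (minus strand, GRCm38) and has 1 coding transcript of 523 bases. It was at 300.1 FPKM in cytarabine 1, 108 in cytarabine 2 and 130 in cytarabine 3, and at 17.6 in control 1, 26.5 in control 2 and 37.4 in control 3. Every treated library was above every control library. The means were 179 ± 105 FPKM (SD, n = 3) with cytarabine and 27.2 ± 9.89 FPKM (SD, n = 3) in controls, 6.61-fold apart. The log2 difference was 2.59 (SE 0.54). With a pseudocount of 0.1 it was 2.635, close to that of Cxcl10 on the same scale. It was 3.21 among libraries low in colon transcript (cytarabine 1 against control 2 and 3) and 2.69 among those with much (cytarabine 2 and 3 against control 1). In each of these sets the treated libraries had more colon transcript than the controls. Leaving out 1 library at a time gave 2.15 to 2.88, the lowest without cytarabine 1. Its mean over the 6 libraries lay above that of 95.9% of all genes.

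**Figure D1:**
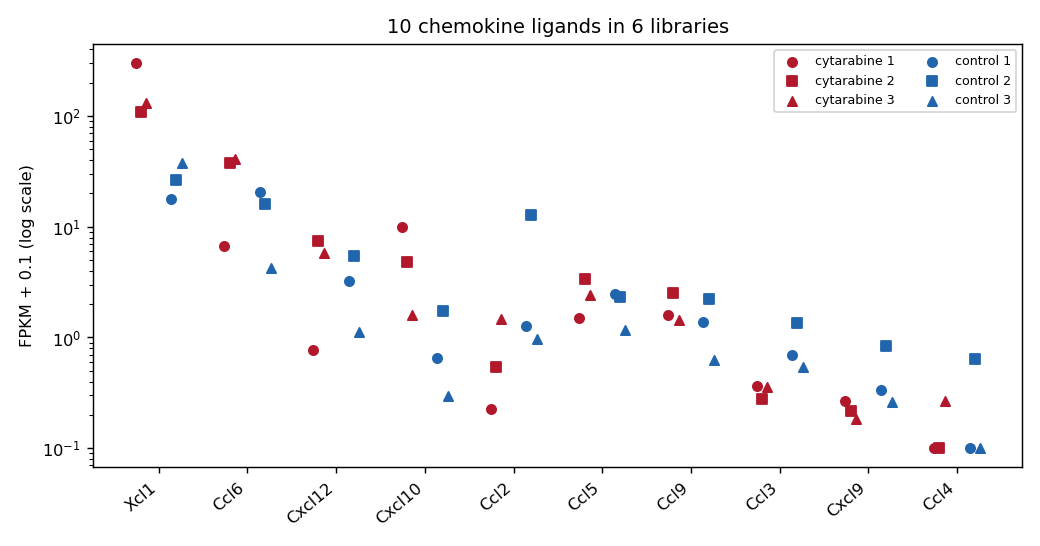
FPKM + 0.1 on a log axis for each of the 10 chemokine genes, ordered by mean FPKM, with 1 point per library (red, cytarabine; blue, control; the marker shape gives the replicate number). Xcl1 is the only one of the 10 whose 3 treated points all lie above its 3 control points, and Ccl3 the only one whose treated points all lie below.

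Among the 10 genes, 1 was higher without overlap between the groups (Xcl1) and 1 lower (Ccl3), and the other 8 overlapped. Over all genes tested, 10.9% were higher and 12.9% lower without overlap. The 10 genes were chosen on this contrast, so nothing is read from their count. Differences were positive for 6 and negative for 4, and their median was 0.23, against -0.0015 for all genes tested. The filter on low values was passed by 7 of the 10. Ccl3, Ccl4 and Cxcl9 had a mean under 1 FPKM.

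Summed over all 41 chemokine ligand genes in the files, Xcl1 made up 88.5%, 47.1% and 50.05% of the ligand FPKM in cytarabine 1, 2 and 3. In controls 1, 2 and 3 it made up 19.5%, 13.1% and 56.5%. The shares overlapped between the groups, with control 3 above cytarabine 2 and 3. The other 9 genes together gave 20.6, 56.4 and 54.0 FPKM in treated mice and 29.8, 42.4 and 8.45 FPKM in controls. Xcl1 ranked first of the 10 in every library except control 1, where Ccl6 was higher at 20.4 FPKM.

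By the mean absolute difference of centred log2(FPKM + 1) over the 6 libraries, the genes tested whose patterns were nearest to that of Xcl1 were Gm13546 (0.505), Tnfrsf9 (0.520), Il2ra (0.534), Arnt2 (0.564) and Ubd (0.587). Tnfrsf9 encodes the costimulatory receptor 4-1BB. It was at 13.1, 7.55 and 10.4 FPKM in treated mice 1, 2 and 3, and at 1.56, 4.32 and 3.01 FPKM in controls 1, 2 and 3. Il2ra encodes the alpha chain of the interleukin 2 receptor, CD25. Its values were 11.3, 8.34 and 8.78 FPKM in treated mice and 1.24, 4.21 and 3.03 FPKM in controls. Both had their lowest value in control 1, as did Xcl1. Since nearness to Xcl1 selected these genes, their separation of the groups is fixed by the choice. Among the 10, the nearest to Xcl1 was Cxcl10, at a larger distance of 0.711.

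NK and T cells are the known sources of Xcl1, so their markers are given beside it. The 11 NK cell markers summed to 175 to 214 FPKM in treated mice and 126 to 146 FPKM in controls. Klrd1 (CD94) made up most of the sum, at 139, 115 and 117 FPKM in treated mice and 94.5, 89.5 and 86.6 FPKM in controls. Of the 11, 4 were tested and all 4 (Klrd1, Klrk1, Klrb1c and Gzma) were higher with an unadjusted p under 0.05, with adjusted p between 0.1498 and 0.237 in limma. Over all genes tested, 7.6% were higher at that threshold. The defining NK genes Ncr1, Eomes and Tbx21 were at most 0.551 FPKM in every library, and Klra4 was listed at 0 in all 6.
T cell genes were divided in the same way between high and near-absent ones. The 12 T cell markers summed to 745 to 983 FPKM in treated mice and 863 to 1044 FPKM in controls, most of it Cd3g at 449 to 652 FPKM. Cd4, Cd8a, Cd8b1 and Cd5 were at most 0.893 FPKM in every library. Of the 6 T cell markers tested, 2 were higher with an unadjusted p under 0.05 (Cd3d and Trat1, adjusted p = 0.136 and 0.178 in limma), and none was lower. The share higher among all genes tested was 7.6%. The more abundant Cd3e, Cd3g, Lck and Zap70 overlapped between the groups, with log2 differences of -0.29, -0.24, -0.046 and -0.010. Cd3g was abundant in all 6 libraries, so leukemia cells and host T cells cannot be told apart by it. The GFP gate is meant to remove host NK and T cells, and the part of any that remained in the Xcl1 difference was not tested.

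Cxcl10 and Cxcl9 encode interferon-inducible ligands of CXCR3, the receptor of activated T and NK cells, and lie next to each other on chromosome 5, at chr5:92346638-92348889 and chr5:92321347-92328079. Cxcl10 was at 9.89 FPKM in cytarabine 1, 4.72 in cytarabine 2 and 1.504 in cytarabine 3, and at 0.549, 1.62 and 0.194 FPKM in controls 1, 2 and 3. Cytarabine 3 lay just below control 2, so the groups overlapped. The means were 5.37 ± 4.23 FPKM (SD, n = 3) and 0.788 ± 0.744 FPKM (SD, n = 3), 6.81-fold apart. The log2 difference was 1.67 (SE 0.70), and 2.63 with a pseudocount of 0.1. Without cytarabine 1 it was 1.16.
Cxcl9 did not share this pattern. It was at 0.169, 0.117 and 0.0829 FPKM in treated mice and at 0.233, 0.745 and 0.160 FPKM in controls. These values correspond to 6, 6 and 3 reads and to 9, 25 and 5 reads. The log2 difference was -0.27 (SE 0.19), with overlap. Cxcl11, the third ligand of CXCR3, was at most 0.0583 FPKM in every library.

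Interferon gamma acts through the kinases Jak1 and Jak2 on genes that include Irf1, Socs1, Cd274 (PD-L1), Gbp2, Cxcl9 and Cxcl10. A list of 19 genes of this axis, without the 10 chemokines, had 14 genes tested. None passed after adjustment (smallest adjusted p = 0.137, limma). With an unadjusted p under 0.05 in limma, 6 of the 14 were higher (42.9%, against 7.6% of all genes tested). None was lower, against 9.81% of all genes tested. The list was chosen with earlier results of these data known, so nothing is read from its counts. Without overlap between the groups, 8 of the 14 were higher, against 10.9% of all genes tested. The median log2 difference of the 14 was 0.28. With the colon and heart scores as covariates, 1 gene of the axis had an unadjusted p under 0.05, and under the other alternatives 5 to 8 had.
Irf1, a transcription factor induced by interferon, was at 99.1, 82.1 and 64.5 FPKM in treated mice 1, 2 and 3 and at 51.4, 49.5 and 49.2 FPKM in controls (log2 difference 0.68, SE 0.15, adjusted p = 0.161, limma). Socs1, a feedback inhibitor of JAK kinases, was at 20.2, 14.4 and 8.92 FPKM in treated mice and at 6.02, 5.01 and 5.64 FPKM in controls (1.18, SE 0.27, adjusted p = 0.166, limma). Cd274, an immune checkpoint ligand, was at 25.2, 17.8 and 14.8 FPKM in treated mice and at 9.25, 10.5 and 9.30 FPKM in controls (0.89, SE 0.19, adjusted p = 0.151, limma). In all 3 genes the treated libraries were above the controls, with cytarabine 1, the library high in neutrophil transcripts, highest and cytarabine 3 lowest, as for Cxcl10. Whether the neutrophil transcripts bear on these values was not tested.
Gbp2, an interferon-induced GTPase named after its values were seen, had 68.6, 46.1 and 21.99 FPKM in treated mice and 17.0 to 19.2 FPKM in controls. Jak1 differed little in size but with a small spread, at 95.5 to 96.8 FPKM in treated mice and 78.8 to 81.6 FPKM in controls (0.26, SE 0.048, adjusted p = 0.137, limma). Ifng itself was listed at 0 in all 6 libraries.

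**Figure D2:**
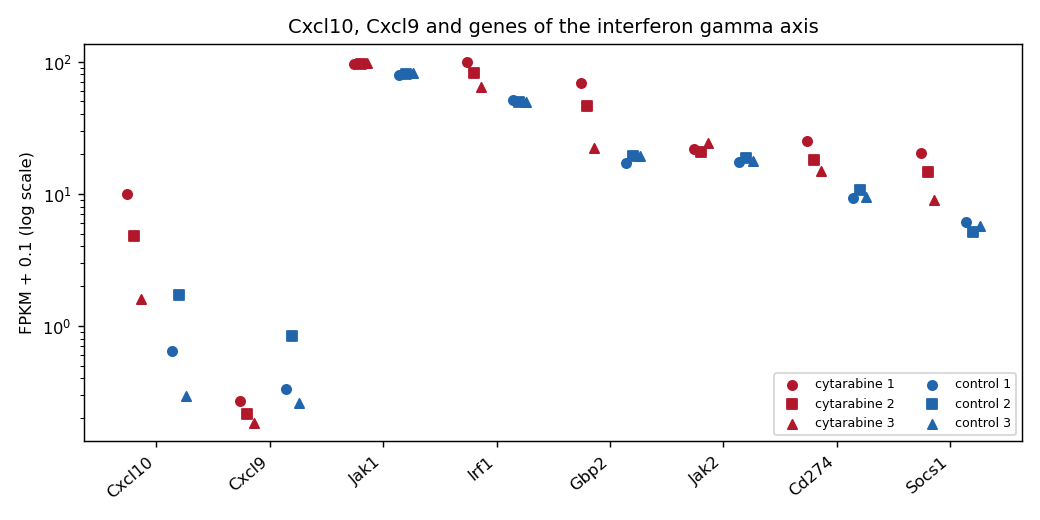
FPKM + 0.1 on a log axis for Cxcl10, Cxcl9 and 6 genes of the interferon gamma axis, with 1 point per library (red, cytarabine; blue, control; the marker shape gives the replicate number). Cytarabine 1 is highest and cytarabine 3 lowest of the treated libraries for Cxcl10, Irf1, Gbp2, Cd274 and Socs1, while Cxcl9 is under 1 FPKM throughout.

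Ccl3, Ccl4 and Ccl5 encode the inflammatory ligands MIP-1alpha, MIP-1beta and RANTES. The genes lie within 1 stretch of chromosome 11, from Ccl5 at chr11:83525778-83530518 to Ccl4 at chr11:83662584-83664683. Ccl3 was at 0.261, 0.181 and 0.256 FPKM with cytarabine, 2 reads in each library, and at 0.601, 1.24 and 0.446 FPKM in controls, 5, 9 and 3 reads. It was lower with cytarabine without overlap, as were 9.02% of the 18178 genes above 0 in any library. The difference rests on 6 reads against 17 and was -0.49 (SE 0.19). With the colon and heart scores as covariates it was 0.054.
Ccl4 was listed at 0 in 4 of 6 libraries. It had 1 read in cytarabine 3 (0.165 FPKM) and 3 reads in control 2 (0.534 FPKM). At these depths 3 reads correspond to 0.345 to 0.568 FPKM, so any difference below that level was not detectable.
Ccl5 had values of 1.41, 3.26 and 2.31 FPKM in treated mice and 2.38, 2.24 and 1.07 FPKM in controls, from 4 to 20 reads. Its groups overlapped (log2 difference 0.19, SE 0.33). The difference was -0.031 without control 3 and 0.41 without cytarabine 1.

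Ccl6 and Ccl9 are rodent chemokines that bind CCR1 and lie beside each other between Ccl5 and Ccl3, at chr11:83587882-83593087 and chr11:83572919-83578636. Ccl6 was the second most abundant of the 10 genes. It was at 6.56, 37.9 and 41.3 FPKM in treated mice 1, 2 and 3 and at 20.4, 15.8 and 4.15 FPKM in controls 1, 2 and 3. The highest values, in cytarabine 2, cytarabine 3 and control 1, fell in the 3 libraries with much colon transcript. The pooled log2 difference was 0.91 (SE 1.03). It was -0.30 among libraries with little colon transcript and 0.92 among those with much. Each of these sets has an arm of 1 library, and cytarabine 1 lay between control 2 and control 3.
Ccl9 was lower and more even, at 1.49, 2.44 and 1.33 FPKM in treated mice and 1.27, 2.12 and 0.525 FPKM in controls. The groups overlapped (0.30, SE 0.35), and after quantile normalization the difference was -0.0010. Its nearest pattern among the 10 was that of Ccl5, at a distance of 0.202.

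**Figure D3:**
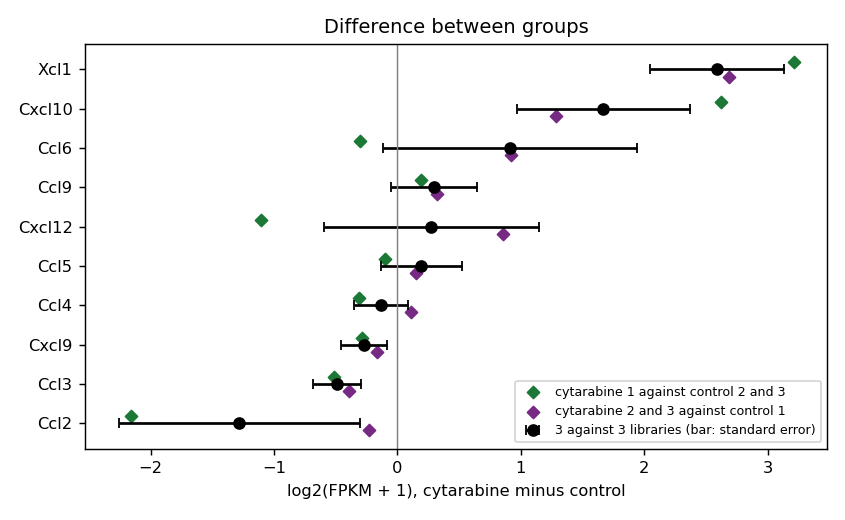
Difference of mean log2(FPKM + 1), cytarabine minus control, for the 10 genes. Black points and bars give the difference and its standard error over 3 against 3 libraries, and diamonds the difference within the libraries with little (green) and with much (purple) colon transcript. Xcl1 is at 2.59 with both diamonds above 2, whereas the diamonds of Ccl6, Cxcl12, Ccl5 and Ccl4 lie on opposite sides of 0.

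Cxcl12 encodes SDF-1, the marrow retention signal made by stromal cells, at chr6:117168535-117181367 on the plus strand. It was at 0.678, 7.38 and 5.75 FPKM in treated mice 1, 2 and 3 and at 3.15, 5.37 and 1.03 FPKM in controls 1, 2 and 3. The groups overlapped (0.27, SE 0.87), and the difference was -1.10 among libraries with little colon transcript and 0.86 among those with much. Ccl6 had the nearest pattern among the 10, at a distance of 0.435. The 12 stromal and osteoblast markers summed to 33.1, 84.4 and 223 FPKM in treated mice and to 598, 427 and 58.8 FPKM in controls. Of these, 9 were tested and none had an unadjusted p under 0.05 in limma, against 17.4% of all genes tested. Host stromal cells are also meant to be removed by the gate, and the part of any that remained in the Cxcl12 values was not tested.

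Ccl2 encodes MCP-1, the ligand of CCR2 that recruits monocytes, at chr11:82035571-82037453. It was at 0.127, 0.440 and 1.37 FPKM with cytarabine, 1, 5 and 11 reads, and at 1.17, 12.6 and 0.867 FPKM in controls, 10, 94 and 6 reads. Control 2 stood far above the others. The log2 difference was -1.28 (SE 0.97), and it was -0.36 without control 2. With the colon and heart scores as covariates it was 1.42.
The other monocyte chemoattractant genes of the same cluster also had their highest value in control 2. Ccl7, the neighbouring gene, was at 0.129, 0.356 and 1.51 FPKM in treated mice and 1.54, 7.62 and 2.34 FPKM in controls. Its log2 difference was -1.42 (SE 0.56, adjusted p = 0.277, limma), and -0.89 without control 2. Ccl8 was at 0.502, 6.08 and 9.10 FPKM in treated mice and 6.69, 70.1 and 3.14 FPKM in controls (-1.47, SE 1.24, adjusted p = 0.518, limma). Ccl12, named after its values were seen, was at 12.7 FPKM in control 2 and at most 0.802 FPKM elsewhere.
Macrophage transcripts were also highest in that library. The 12 macrophage and monocyte markers summed to 188 FPKM in control 2 and to 31.7 to 74.7 FPKM in the other 5. C1qa, a complement subunit made by macrophages, was at 47.5 FPKM in control 2 and at 1.83 to 18.5 FPKM elsewhere. Of these markers 9 were tested, and none had an unadjusted p under 0.05 in limma, against 17.4% of all genes tested. The gate on GFP and CD49b is meant to remove host macrophages, and the part of any that remained in the Ccl2 values was not tested.

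**Figure D4:**
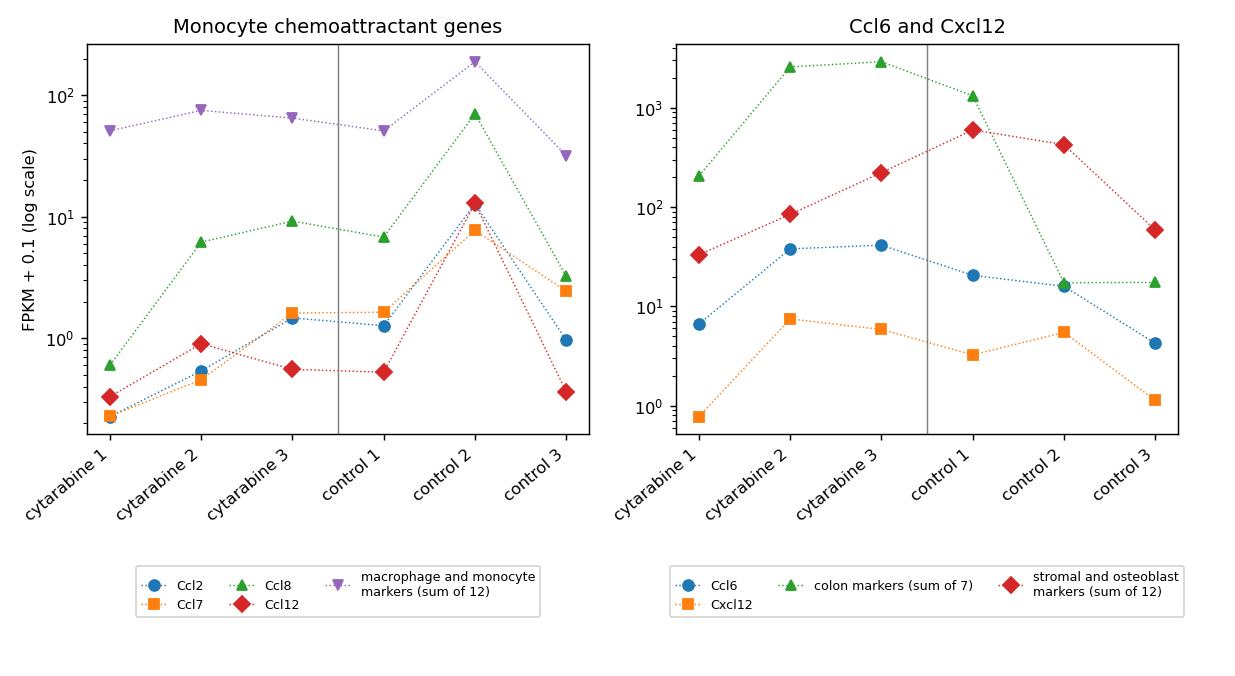
FPKM + 0.1 on a log axis by library, with dotted lines only to guide the eye and a vertical line between the groups. Left, Ccl2, Ccl7, Ccl8 and Ccl12 with the sum of 12 macrophage and monocyte markers, all highest in control 2. Right, Ccl6 and Cxcl12 with the sums of 7 colon markers and of 12 stromal and osteoblast markers, where cytarabine 2 and cytarabine 3 have the highest values of Ccl6, Cxcl12 and the colon sum.

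Of the other 31 chemokine ligand genes, 16 were tested and none passed after adjustment (smallest adjusted p = 0.277, limma). Ccl7 was the 1 gene with an unadjusted p under 0.05, lower with cytarabine. That is 6.25% of the 16, against 17.4% of all genes tested, in either direction. Across alternatives the count was 0 to 5. The median log2 difference was -0.17. Without overlap between the groups, 1 of the 16 was higher (Ccl1) and 1 lower (Ccl7), against 10.9% and 12.9% of all genes tested. Ccl1 passed the filter on low values only through its treated libraries and Ccl7 only through its controls, so nothing is read from these counts. Below the filter, Ccl17, Ccl22 and Ppbp were also higher without overlap. Ccl1, named after its values were seen, was at 5.12, 0.354 and 0.753 FPKM in treated mice and 0, 0 and 0.291 FPKM in controls (1.16, SE 0.63, adjusted p = 0.368, limma). Ccl21a, a ligand of CCR7 with near-identical copies that can share reads, was at 0.462, 14.0 and 14.5 FPKM in treated mice and at 11.6 and 1.62 FPKM in controls 1 and 2, and was listed at 0 in control 3. Ccl25, a ligand of CCR9, was even, at 5.22 to 5.35 FPKM in treated mice and 4.81 to 8.32 FPKM in controls.

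The receptors of the 10 chemokines were mostly low in these cells, apart from Cxcr4. Cxcr4, the receptor of CXCL12, was at 27.6, 33.9 and 22.6 FPKM in treated mice and at 15.6, 16.2 and 18.4 FPKM in controls. All treated libraries were above all controls (log2 difference 0.70, SE 0.16, unadjusted p = 0.0044, adjusted p = 0.159, limma). With the colon and heart scores as covariates the difference was 0.18. Xcr1, the receptor of XCL1, was at 0.287, 0.545 and 0.421 FPKM in treated mice and at 0.280, 0.170 and 0.204 FPKM in controls, below the filter. The 7 dendritic cell markers, Xcr1 among them, summed to 2.10 to 2.71 FPKM with cytarabine and 1.41 to 3.99 FPKM in controls.
CCR1 binds CCL3, CCL5, CCL6 and CCL9. Ccr1 was at 1.25, 1.28 and 2.22 FPKM in treated mice and 1.49, 4.08 and 1.35 FPKM in controls (-0.28, SE 0.36, adjusted p = 0.665, limma). Ccr2 was at 0.765, 2.26 and 1.43 FPKM in treated mice and 1.47, 5.87 and 1.51 FPKM in controls (-0.54, SE 0.48, adjusted p = 0.538, limma). Both were highest in control 2.
Ccr3 and Cxcr3 were at most 0.422 FPKM in every library. Among the atypical receptors, which take up chemokines without signalling through G proteins, Darc (ACKR1) was at 0.182 to 2.67 FPKM and Ccbp2 (ACKR2) at most at 0.0613 FPKM. Cxcr7 (ACKR3), which binds CXCL12, was at 0.321, 2.44 and 2.17 FPKM in treated mice and 0.944, 0.915 and 0 FPKM in controls (0.65, SE 0.51, adjusted p = 0.487, limma).
The most abundant receptor genes were receptors of other chemokines. Ccr8, the receptor of CCL1, was at 152, 125 and 124 FPKM in treated mice and 147, 199 and 200 FPKM in controls (-0.44, SE 0.15, unadjusted p = 0.027, adjusted p = 0.236, limma). Cx3cr1, the receptor of CX3CL1, was at 46.1, 41.1 and 38.7 FPKM in treated mice and 46.0, 66.5 and 67.0 FPKM in controls (-0.49, SE 0.16, unadjusted p = 0.026, adjusted p = 0.233, limma). In both, control 1 lay among the treated libraries. Of the 24 receptor genes 9 were tested, and Cxcr4, Ccr8 and Cx3cr1 were the 3 with an unadjusted p under 0.05 (33.3%, against 17.4% of all genes tested). The count was 1 without cytarabine 3, without control 2, without control 3, with the covariates and with the replicate block. It was 6 with no filter on low values, 4 without cytarabine 1 and 3 under every other alternative.

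**Figure D5:**
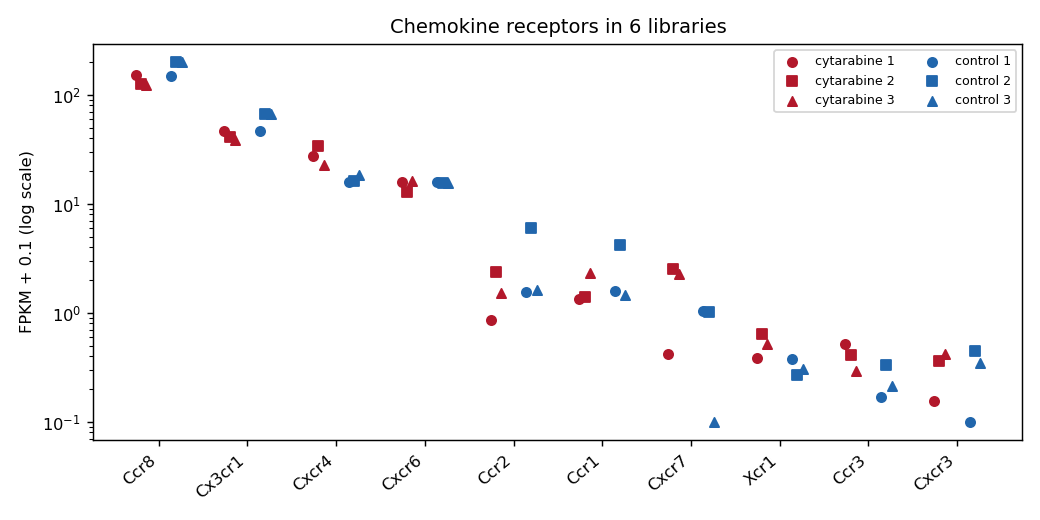
FPKM + 0.1 on a log axis for 10 chemokine receptor genes, with 1 point per library (red, cytarabine; blue, control; the marker shape gives the replicate number). Cxcr4 is at 22.6 to 33.9 FPKM in treated mice and 15.6 to 18.4 FPKM in controls, while Xcr1, the receptor of XCL1, stays under 1 FPKM in all 6 libraries.

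Downstream of these receptors, 28 of 32 signalling genes were tested and none had an unadjusted p under 0.05 in limma (smallest adjusted p = 0.288). Among all genes tested, 17.4% had one. That count was 9 without cytarabine 1, 3 without control 1 and at most 2 under every other alternative. Without overlap between the groups, 2 of the 28 were higher (Gnai3 and Rac1) and 0 lower, against 10.9% and 12.9% of all genes tested. The G protein subunit genes Gnb2 and Gnai2 and the small GTPase gene Rap1b were the most abundant. Gnai2 was at 144 to 152 FPKM in treated mice and 132 to 145 FPKM in controls (0.099, SE 0.058, adjusted p = 0.391, limma). Gnb2 was at 189 to 202 FPKM and Rap1b at 152 to 187 FPKM over the 6 libraries.
Proteases can trim or inactivate chemokines after secretion. Of 14 genes of such enzymes 12 were tested, with 1 higher and 1 lower at an unadjusted p under 0.05 (16.7%, limma), against 17.4% of all genes tested. Without cytarabine 1 the count was 7, and with the covariates it was 1. Dpp4, which encodes CD26 and truncates CXCL10 and CXCL12, was at 2.60, 4.96 and 5.15 FPKM in treated mice and 1.93, 1.19 and 1.47 FPKM in controls (1.02, SE 0.26, adjusted p = 0.1797, limma). The enzyme genes with the highest mean over the 6 libraries, Mmp9, Adam10 and Adam17, were at 46.5 to 58.2, 37.0 to 43.0 and 22.01 to 26.02 FPKM over the 6 libraries, with adjusted p of 0.683, 0.913 and 0.922 in limma. Mmp8, the neutrophil collagenase, was at 1.56, 0.352 and 0.697 FPKM in treated mice and 5.54, 9.38 and 9.78 FPKM in controls (-2.32, SE 0.32, adjusted p = 0.131, limma). Mmp8 is also 1 of 9 neutrophil markers in the files, of which 8 were lower at an unadjusted p under 0.05 (limma). Among all genes tested, 9.81% were lower at that threshold. The 9 had their lowest sums in cytarabine 2 and 3, as given above, and the part of neutrophils in the Mmp8 difference was not tested.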

How the data were processed

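RNA was purified from sorted cells and made into libraries with the TruSeq stranded mRNA kit. Per the labels, the authors' tools were TopHat2 2.0.13, Bowtie2 2.2.3, SAMtools 0.1.19 and Cufflinks 2.2.1 on mm10, and the annotation is not given in the sources used here. The authors deposited FPKM per gene, already divided by transcript length and library size, and no counts, so no count test was run.

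Values were taken as log2(FPKM + 1). Genes whose mean reached 1 FPKM entered a two-sided limma fit (limma 3.58.1, R 4.3.3, eBayes with trend), and p-values were adjusted by Benjamini-Hochberg. The step was tested on simulated data with known changes and independent noise in each gene. That simulation held no transcripts of other tissues, so it does not cover their effect on the fit. The p-values set the difference between the groups against the spread between libraries, moderated over genes. With 1 library per mouse, differences between mice and between preparations cannot be told apart in that spread. Depth was inferred from the FPKM steps of 3803 genes with 1 transcript, assuming a fragment length of 200 bases (SD 80). Read numbers cover counting error only. Positions are from the GENCODE annotation of GRCm38, and promoters from RefSeq.

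The 10 members and all gene lists were chosen with earlier results of these data known. The genes named are the members, their receptors, up to 4 genes in each direction per list with the smallest unadjusted p under 0.05, the 3 most abundant per list, the 5 nearest to Xcl1 and the nearest member of each member. Further genes, such as Gbp2, Ccl1, Ccl12, Cxcl11, Ifng and the NK and T cell markers outside this rule, were chosen after their values were seen. Some genes that this rule names are not reported here.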

Additional observations from a re-analysis of the deposited data

How the results depend on the processing

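Of the 10 chemokine genes, Xcl1 and Cxcl10 kept the sign of their difference under all 14 alternatives, and the other 8 changed sign under at least 1. With colon and heart scores as covariates Xcl1 was at 3.35. The count of genes with an adjusted p under 0.05 was 1 with a pseudocount of 0.1, 2 without the eBayes trend, 1 with a robust trend, 1 when microRNA and small nucleolar RNA were left out, and 0 to 6 with 1 library left out, the most without cytarabine 1. The count with an unadjusted p under 0.05 was 550 with the covariates and 1176 to 4111 with 1 library left out, the lowest without control 3 and the highest without cytarabine 1. With the replicate number as a block it was 994. Same-numbered libraries are different mice, and their deviations correlated at -0.709, -0.247 and -0.594, so the numbers do not pair them, and the replicate block is only 1 of the alternatives.

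For 23 other genes, among them the sheddase genes Adam10 and Adam17, 20 of 383 values reversed. No gene passed an adjusted p of 0.05 under the main setting, so staying above it says nothing about stability. Among genes with an unadjusted p under 0.05, that p reached 0.275 for Ccr8, 0.218 for Cx3cr1, 0.388 for Cxcr4, 0.189 for Irf1, 0.256 for Socs1, 0.273 for Dpp4, 0.071 for Jak1, 0.052 for Cd274 and 0.635 for Ccl7 in at least 1 alternative, and at most 0.012 for Mmp8. With the covariates, the log2 difference was 0.95 for Ccr1, 0.14 for Ccr2, 0.49 for Ccl7, 1.21 for Ccl8, -0.58 for Ccl21a, 0.0090 for Gnb2, 0.17 for Rap1b, 0.094 for Adam10 and 0.16 for Adam17. Quantile normalization gave 0.0026 for Gnb2 and 0.00028 for Adam10, and equal sums per library gave 0.0027 for Adam10 and 0.0015 for Adam17. With 1 library left out, the difference ranged from -0.48 to 0.073 for Ccr1 (above 0 without control 2), from -0.30 to 0.041 for Ccl25 (above 0 without control 3), from -0.049 to 0.044 for Adam10 and from -0.084 to 0.028 for Adam17. The cause was not tested. Depth limits Ccl3, Ccl4, Ccl5 and Cxcl9, with at most 25 reads in a library, and Ccl2, with 1 to 11 reads outside control 2.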
